A study of Homo sapiens with 6 samples.

Results

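The genes described here are 10 components of adherens junctions and desmosomes, chosen by their symbols: CDH1, CTNNA1, CTNNB1, CTNND1, JUP, DSP, DSG2, DSC2, PKP2 and PKP3. All 10 were among the 12180 protein-coding genes of the gene table, and 44 of the 33090 transcripts of the transcript table belonged to them. RNA was sequenced from TE-1 cells, an established line from a human esophageal squamous cell carcinoma (ESCC), the common cancer of the lining of the esophagus. The paper describes lentiviral FGL1-OE cells selected with puromycin, and control cells (NC) with random nonsense sequences. It does not say which control was sequenced, and the labels give the genotype of the 3 control libraries, here called NC, as WT. Whether the control cells carried a construct and were selected is thus not known. If they were not, effects of these steps cannot be told apart from those of FGL1. The 3 FGL1-OE libraries came from cells overexpressing FGL1, a secreted protein related to fibrinogen. Whether the stable cells were a pool or 1 clone, the promoter of the construct and the time of harvest are not given in the sources used here. Nothing states that the 3 libraries of a group came from separate cultures, so p-values measure only the spread between these libraries. The study asked which genes respond to FGL1 in cells that it tested for migration and invasion.

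Epithelial cells hold to each other through adherens junctions, which join the actin filaments of neighbours, and desmosomes, which join their keratin filaments. In the first, the cadherin encoded by CDH1 binds its like on the next cell while catenins inside the cell tie it to actin. In the second, desmogleins and desmocollins take the place of the cadherin, and plakoglobin, plakophilins and desmoplakin take that of the catenins. Squamous epithelium is rich in both, and loss of E-cadherin is a textbook mark of the epithelial-mesenchymal transition, in which epithelial cells loosen and move.

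FGL1 was listed at 0.0202, 0 and 0.106 FPKM in NC 1 to 3 and at 33.5, 39.3 and 39.9 in FGL1-OE 1 to 3, as the labels have it. FPKM, fragments per kilobase of transcript scaled to the mapped fragments of the library, is the unit of all levels below. Since it is per length it allows a rough comparison of levels of different genes, but it does not correct for GC content, along which libraries differed (below). Of 11 squamous and general epithelial markers 9 were listed (KRT14 and SOX2 were not), with TP63, the squamous regulator, low at 0.299 to 0.779 FPKM in the 6 libraries and under the minimum for testing. Summed squamous markers were at 123 to 185 FPKM in NC, against 204 to 222 in FGL1-OE. General epithelial markers, CDH1 among them, summed to 666 to 1105 in NC and 866 to 1005 in FGL1-OE. KRT6A, a keratin of squamous epithelium, made up most of the first sum, with 160, 108 and 139 FPKM in NC, compared with 197, 183 and 192 in FGL1-OE. KRT17 was at 6.13 to 11.6 in NC and 11.2 to 15.8 in FGL1-OE. KRT5 was at 4.27 to 6.24 in NC and 4.46 to 5.84 in FGL1-OE, and KRT13 at 3.40 to 6.42 and 3.16 to 4.47. The part of these markers in the results below was not tested. Of 6 fibroblast markers 3 were listed, summing to 2.29 to 8.11 in NC and 3.24 to 8.27 in FGL1-OE, and none of 4 leukocyte or 3 endothelial markers was listed. The NC libraries stood further apart than the FGL1-OE libraries. NC 3 lay between NC 1 and NC 2 in 70.0% of 12017 genes, and the difference of NC 2 from NC 1 in log2(FPKM + 1) followed GC content across 11775 genes (Spearman rho -0.788), with a median of 0.82 in the fifth of genes poorest in GC and -0.78 in the richest. Results below are also given without NC 2 and, as an alternative chosen after seeing the data, after removal of the trend with GC content and length.

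CDH1 (ENSG00000039068, chr16:68771128-68869451 on GRCh37), the E-cadherin of adherens junctions, had the largest difference of the 10 genes. Its level was 44.2, 32.2 and 52.5 FPKM in NC 1 to 3 and 61.7, 61.7 and 62.0 in FGL1-OE 1 to 3. The groups did not overlap, with NC 3 the nearest to FGL1-OE and NC 2 the furthest from it. The group means were 43.0 ± 10.2 and 61.8 ± 0.162 (SD, n = 3 each), a difference of 43.9%. On the log2(FPKM + 1) scale the difference was 0.54 (SE 0.20, 95% interval 0.08 to 1.00), with an unadjusted limma p of 0.0263 and an adjusted p of 1.00. The exact two-sided permutation test gave 0.1, the smallest value that 3 against 3 allows. By unadjusted p CDH1 ranked 126 of 12017 genes, and FGL1 alone passed adjustment (0.00832% of genes).

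Among the 10 genes, CDH1 was the 1 with an unadjusted p under 0.05, beside 2.01% of all tested genes (1.21% with higher values in FGL1-OE), and the 1 whose groups did not overlap, beside 7.15% of all tested genes. The FGL1-OE libraries were almost equal in CDH1, with an SD of 0.00371 on the log2 scale, where the median gene had 0.121 in that group. NC 2 was the lowest library for CDH1, and leaving it out lowered the difference to 0.35 (unadjusted p = 0.0323, adjusted p = 0.209). In that fit 21.8% of all genes had an unadjusted p under 0.05. After removal of the trend the difference of CDH1 was 0.51 (unadjusted p = 0.0370), in a fit in which 6.42% of all genes had an unadjusted p under 0.05. CDH1 lies mid-range in GC content, at 48.6% in its most abundant transcript, and after the trend was removed NC 2 was still its lowest library, at 4.97 on the adjusted log2 scale beside 5.65 and 5.72 in NC 1 and NC 3 and 5.92 to 6.02 in FGL1-OE. The part of the spread between NC libraries in this difference was not tested. In bulk RNA, more cells with CDH1 and more CDH1 RNA per cell cannot be told apart. The unadjusted p was above 0.05 when libraries were scaled to a common sum (0.0514), without moderation (0.0547) and without any 1 of the FGL1-OE libraries (0.0660 to 0.0708).

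**Figure D1:**
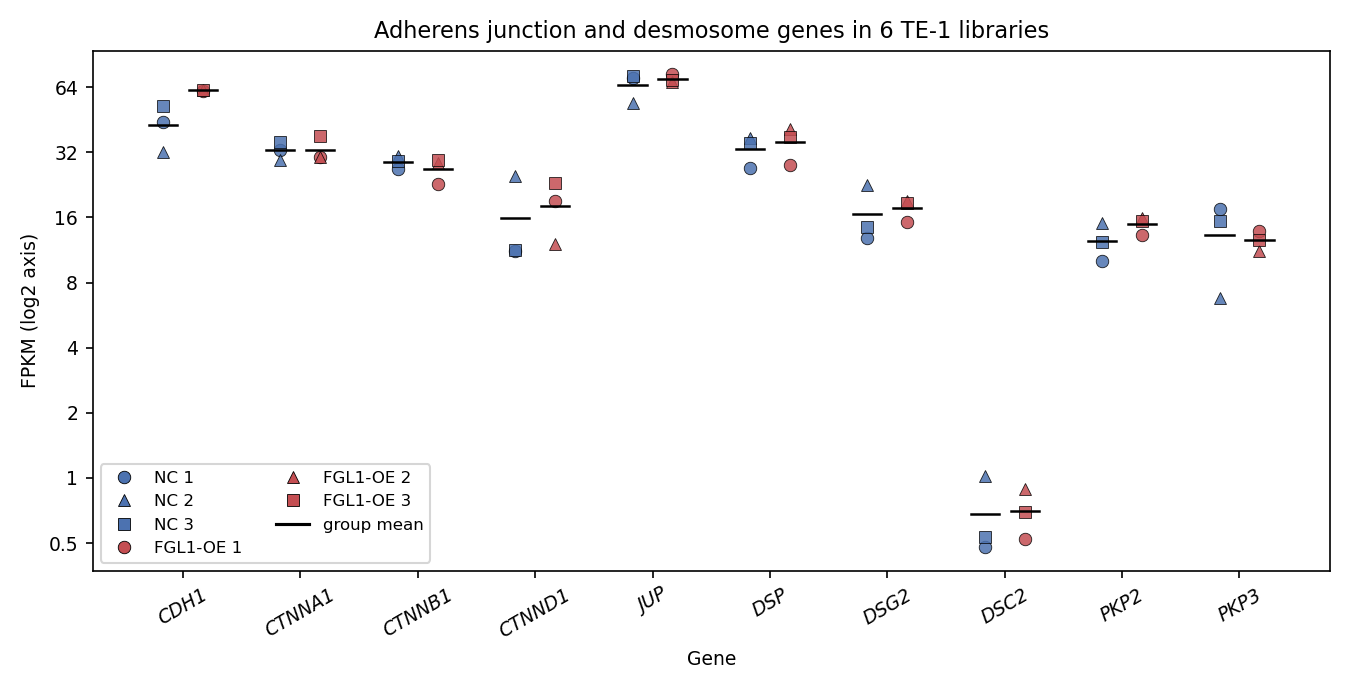
FPKM (log2 axis) of the 10 genes in each library, with NC in blue and FGL1-OE in red, the shape giving the replicate number and the bar the group mean of 3 libraries. The 3 FGL1-OE libraries of CDH1 lie on 1 point at 61.7 to 62.0, above NC at 32.2 to 52.5, while the groups of the other 9 genes overlap.

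The catenins showed no such separation. CTNNA1 (ENSG00000044115, chr5:137946656-138270723), the alpha-catenin that links the complex to actin, was at 32.8, 29.4 and 35.6 FPKM in NC, against 30.3, 30.5 and 37.8 in FGL1-OE. CTNNB1 (ENSG00000168036, chr3:41236328-41301587), the beta-catenin that also carries the Wnt signal, was at 26.6, 30.7 and 29.1 in NC and 22.7, 28.4 and 29.4 in FGL1-OE. Both pairs of groups overlapped, with differences of 0.01 (95% interval -0.37 to 0.38, unadjusted p = 0.960) for CTNNA1 and -0.11 (-0.48 to 0.27, unadjusted p = 0.532) for CTNNB1, the lowest of the 10. CTNND1 (ENSG00000198561, chr11:57520715-57587018), the p120-catenin that keeps cadherins at the membrane, was at 11.2, 25.0 and 11.3 in NC and 19.1, 12.04 and 23.2 in FGL1-OE. It was high in 1 NC library and low in 1 FGL1-OE library, so that its interval was the widest of the 10 (difference 0.23, -0.58 to 1.05, unadjusted p = 0.525). Without NC 2 its difference was 0.60 (unadjusted p = 0.0490), in a fit in which 21.8% of all genes had an unadjusted p under 0.05.

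JUP (ENSG00000173801, chr17:39910856-39943183) encodes plakoglobin, the catenin found in both kinds of junction, and had the highest level of the 10. Its level was 70.6, 54.3 and 72.03 FPKM in NC, compared with 73.2, 67.4 and 69.2 in FGL1-OE. NC 2 was the low library, the other 5 overlapped, and the difference was 0.10 (-0.28 to 0.48, unadjusted p = 0.557). After removal of the trend the groups of JUP no longer overlapped (0.18, unadjusted p = 0.138), as for 14.2% of all genes in that fit.

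Of the desmosomal cadherins, DSG2 (ENSG00000046604, chr18:29078006-29128971), desmoglein 2, was at 12.8, 22.6 and 14.5 FPKM in NC, against 15.2, 19.1 and 18.7 in FGL1-OE. DSC2 (ENSG00000134755, chr18:28638806-28682378), desmocollin 2, was the lowest of the 10, at 0.478, 1.02 and 0.536 in NC and 0.523, 0.887 and 0.694 in FGL1-OE. In both, NC 2 was the highest of all 6 libraries and the groups overlapped. The differences were 0.11 (-0.41 to 0.64, unadjusted p = 0.628) for DSG2 and 0.03 (-0.39 to 0.45, unadjusted p = 0.877) for DSC2. Of the other desmosomal cadherins, DSG3 was at 8.67 ± 2.45 FPKM in NC, compared with 8.67 ± 1.06 in FGL1-OE, and DSC3 at 1.81 ± 0.676 and 1.90 ± 0.297 (SD, n = 3 each). DSG1, DSG4 and DSC1 were not listed.

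The plakophilins, armadillo proteins that gather desmosomal cadherins and desmoplakin, gave opposite pictures in the NC libraries. PKP2 (ENSG00000057294, chr12:32943679-33049774) was at 10.1, 15.1 and 12.3 FPKM in NC, against 13.2, 15.9 and 15.4 in FGL1-OE. PKP3 (ENSG00000184363, chr11:392614-404908) was at 17.5, 6.82 and 15.3 in NC and 13.8, 11.2 and 12.6 in FGL1-OE. NC 2 was the highest NC library for PKP2 and the lowest of all 6 for PKP3. The differences were 0.25 (-0.18 to 0.67, unadjusted p = 0.216) for PKP2 and 0.02 (-0.71 to 0.76, unadjusted p = 0.943) for PKP3. Leaving out NC 2 turned PKP3 to -0.36 (unadjusted p = 0.0398) and moved PKP2 to 0.38 (unadjusted p = 0.0381). In that limma fit both had an adjusted p of 0.217, and 21.8% of all genes had an unadjusted p under 0.05. With the trend removed both were above 0, at 0.17 for PKP3 (unadjusted p = 0.250) and 0.20 for PKP2 (unadjusted p = 0.0684), so the sign of PKP3 without NC 2 did not hold with all libraries and the trend removed.

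DSP (ENSG00000096696, chr6:7541808-7586950), the desmoplakin that anchors keratin filaments, was at 27.05, 37.4 and 35.3 FPKM in NC, compared with 28.1, 40.9 and 37.6 in FGL1-OE. The first library was the lowest in each group, the groups overlapped almost fully, and the difference was 0.09 (-0.38 to 0.56, unadjusted p = 0.676). EVPL, a plakin of the cornified envelope related to desmoplakin, was at 12.3 ± 3.20 in NC and 8.64 ± 0.969 in FGL1-OE (SD, n = 3 each), with a difference of -0.44 (unadjusted p = 0.0705). PERP, a membrane protein of desmosomes, was at 41.3, 81.4 and 48.2 in NC and 62.6, 62.0 and 64.2 in FGL1-OE, so that NC lay on both sides of FGL1-OE.

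In mean level over the 6 libraries the genes ran from JUP at 67.8 FPKM through CDH1 (52.4), DSP (34.4), CTNNA1 (32.8), CTNNB1 (27.8), DSG2 (17.1), CTNND1 (16.96), PKP2 (13.7) and PKP3 (12.9) to DSC2 at 0.690. Neighbours in this order overlapped over the libraries, with 2 exceptions. DSC2 lay below every library of every other gene, and the lowest CTNNB1 library (22.7) was just above the highest of DSG2 (22.6). CDH1 was at the 94.5th percentile of mean levels among the tested genes and JUP at the 96.1st.

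The median log2 difference of the 10 was 0.09, beside 0.02 for all tested genes. The estimate was positive in 9 of 10 genes, in 6 of 10 without NC 2 and in 7 of 10 with the trend removed. Among the 9, CTNNA1, PKP3 and DSC2 were near 0, at 0.01, 0.02 and 0.03. The share of positive estimates over all genes is not given here, so these counts are only a description. Without NC 2 the groups of 5 of the 10 genes did not overlap (CDH1, CTNND1, DSG2, PKP2 and PKP3, the last with FGL1-OE lower), as for 42.8% of all genes. With the trend removed they were 3 of 10 (CDH1, JUP and PKP2, all with FGL1-OE higher), beside 14.2% of all genes.

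**Figure D2:**
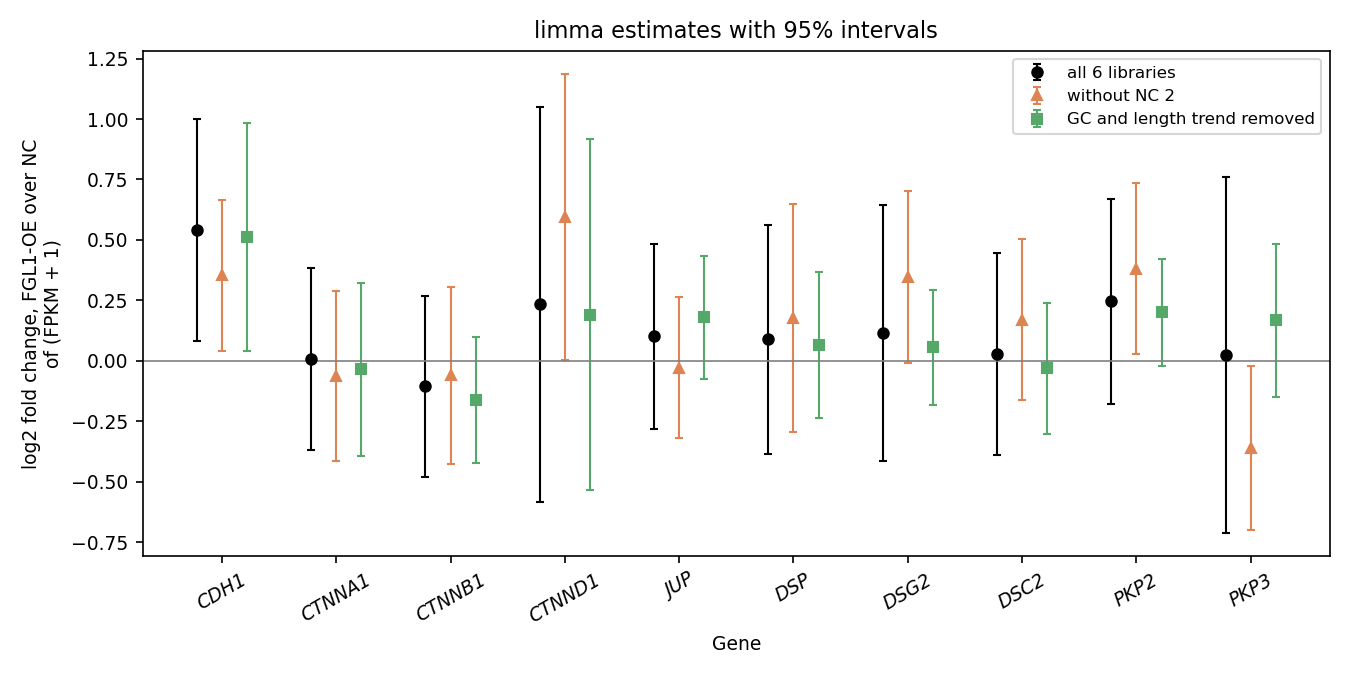
Log2 difference of (FPKM + 1), FGL1-OE over NC, with 95% intervals from limma, for all 6 libraries (black), without NC 2 (orange) and after the GC and length trend was removed (green). CDH1 is the gene whose interval stays above 0 in all 3 fits (lower limits 0.08, 0.04 and 0.04), while PKP3 lies at 0.02, -0.36 and 0.17.

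The 10 genes differed in GC content, and the NC libraries parted along it. DSC2 had the lowest GC content in its most abundant transcript, 38.9%, and PKP3 the highest, 66.7%, with JUP next at 61.5%. From NC 1 to NC 2 the log2 level of DSG2 was higher by 0.77 and that of CTNND1 by 1.10, while PKP3 was lower, at -1.24, and JUP at -0.37. Over the 10 genes the difference had a Spearman rho of -0.697 with GC content, given as a description of 2 libraries. Across the 6 libraries, as a description and among the most extreme of all pairs of the 10 genes, Pearson's r was 0.955 between DSG2 and DSC2, 0.925 between JUP and PKP3 and -0.939 between DSG2 and PKP3. CDH1 and CTNNA1 fell below the trend, at -0.45 and -0.15 near the middle of the GC range.

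**Figure D3:**
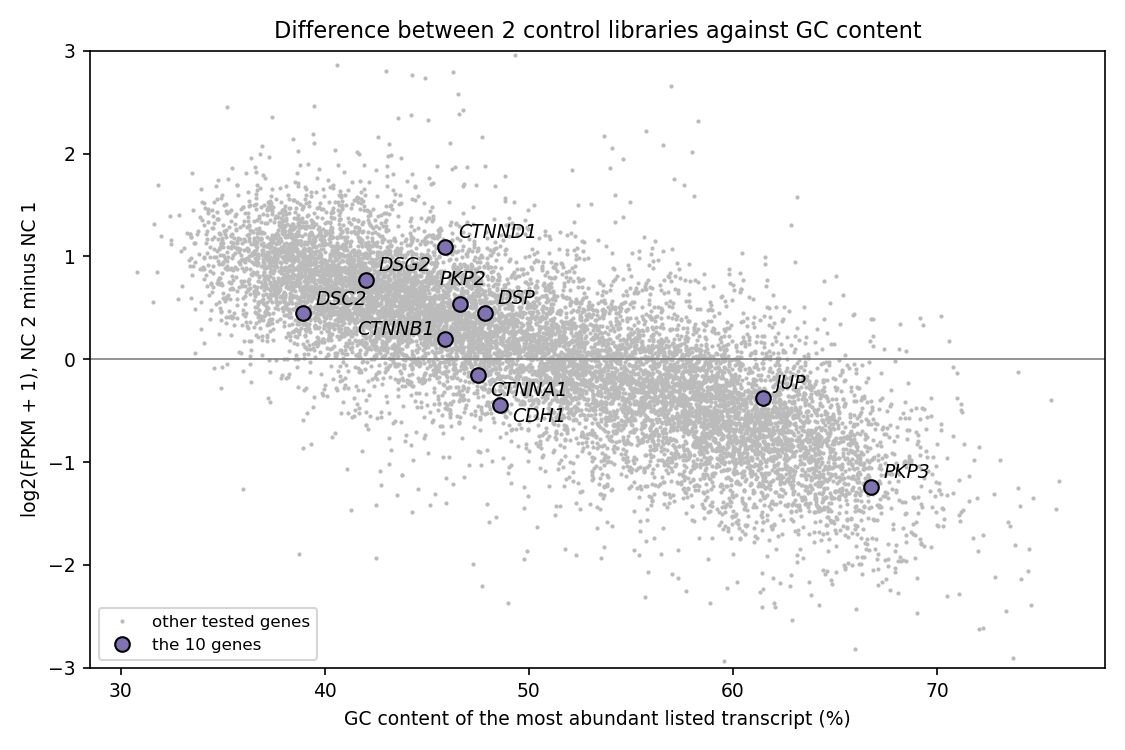
Difference of NC 2 from NC 1 in log2(FPKM + 1) against the GC content (%) of each gene's most abundant listed transcript, with 11775 tested genes in grey (8 lie outside the axis) and the 10 junction genes in purple. The cloud falls from left to right, with DSG2 at 0.77 on the GC-poor side and PKP3 at -1.24 on the GC-rich side.

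Below the gene level, the assignment of reads to transcripts changed from library to library. Transcript levels also did not add up to the gene levels above. Over the 6 libraries the listed transcripts summed to 164% to 170% of the gene's FPKM for PKP2 and 192% to 210% for CTNNB1. The sums were 152% to 155% for JUP, 118% to 153% for CTNND1 and 76.7% to 176% for CTNNA1. Differences that would alter the protein are shown for 3 genes, as annotated in GENCODE v29 on GRCh38, with the bases of 1 transcript that its partner lacks in capitals and 15 coding or adjoining bases in lower case. In CDH1-212, 63 coding bases (21 codons, in frame) at chr16:68813500-68813562 on the plus strand form an annotated exon that begins after a gap of only 4 bases from an exon CDH1-201 also has. In DSC2-201, 33 bases (11 codons) at chr18:31068312-31068344 on the minus strand replace the end of the coding sequence of DSC2-202, giving the short b form of the tail.
CDH1-212: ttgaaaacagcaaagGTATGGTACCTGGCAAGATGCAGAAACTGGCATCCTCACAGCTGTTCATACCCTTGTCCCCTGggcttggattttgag
DSC2-201: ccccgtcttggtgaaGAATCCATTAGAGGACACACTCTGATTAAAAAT

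The third gene, CTNND1, has transcripts with different start codons. The upstream start at chr11:57791479 (GRCh38) adds 101 codons before the downstream start at chr11:57795613, both on the plus strand. Forms from the upstream start, called isoform 1, are known from mesenchymal and motile cells, and shorter forms from epithelial cells. The start codons are in capitals below, with the coding bases around them in lower case.
CTNND1 upstream start: ATGgacgactcagaggtggagtcgaccgcc
CTNND1 downstream start: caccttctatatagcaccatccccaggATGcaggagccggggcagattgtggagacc

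Of the 44 transcripts of the 10 genes, 39 had a mean of at least 0.5 FPKM and were tested. None had an adjusted p under 0.05 in limma (0.0165% of all tested transcripts had), 3 had an unadjusted p under 0.05 (7.69%, beside 3.53% of 30330 tested transcripts, or 2.05% with higher values in FGL1-OE) and 5 had groups that did not overlap (12.8%, beside 8.22%). The 3 were minor forms of catenin genes with higher values in FGL1-OE. Their NC means were 0.192, 0.426 and 0.188 FPKM (CTNND1-208, CTNND1-233 and CTNNA1-219), and no listed transcript had both group means under 0.5 FPKM, so these 3 were listed only through their FGL1-OE level. They are also among the 5 whose groups did not overlap, and neither their direction nor these counts are given as support for a difference. CTNND1-208 (ENST00000428599), 1 of the 2 listed transcripts with the upstream start, was at 0.140, 0.157 and 0.279 FPKM in NC, against 1.21, 0.966 and 2.01 in FGL1-OE (difference 0.99, SE 0.26, unadjusted p = 0.00779). CTNND1-233 (ENST00000532787), with the downstream start, was at 0.951, 0.326 and 0 in NC and 1.07, 1.29 and 2.32 in FGL1-OE (0.87, SE 0.35, unadjusted p = 0.0440), with an unadjusted p under 0.05 in only 5 of 14 alternatives other than array weights (up to 0.138) and of 0.0911 without NC 2. CTNNA1-219 (ENST00000520158), an annotated fragment with 647 coding bases, was at 0, 0.534 and 0.0286 in NC and 1.21, 6.399 and 2.10 in FGL1-OE (1.67, SE 0.49, unadjusted p = 0.0134). CTNNA1-219 was highest in FGL1-OE 2 and both CTNND1 forms in FGL1-OE 3. CTNND1-208 and CTNND1-233 share every word of 31 bases with other annotated transcripts of the gene, and CTNNA1-219 all but 9.87%.

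The 2 upstream-start transcripts of CTNND1 together made up 11.3%, 0.814% and 45.4% of the summed FPKM of its listed transcripts in NC and 6.09%, 13.1% and 9.36% in FGL1-OE. NC 3 held the high share and NC 2 the low one, with FGL1-OE within the NC range. The high share of NC 3 came from CTNND1-222, at 7.29 FPKM there beside 0.125 to 1.79 in the other 5 libraries. CTNND1-223, from the downstream start, had the highest mean of the gene, at 8.49, 18.3 and 6.73 in NC and 20.4, 1.87 and 19.5 in FGL1-OE. It was lowest in FGL1-OE 2, and the group difference was -0.06 (unadjusted p = 0.950).

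CDH1 changed its leading transcript within the FGL1-OE group. CDH1-201 (ENST00000261769), the reference form of 882 codons, was at 55.8, 3.60 and 16.2 FPKM in NC, compared with 0.282, 2.07 and 17.9 in FGL1-OE (difference -1.97, -5.01 to 1.06, unadjusted p = 0.165). The difference was -1.08 without NC 1, -1.11 without FGL1-OE 1 and -3.06 without FGL1-OE 3 (unadjusted p = 0.0385). CDH1-212, with the 63 extra bases printed above and 903 codons, was at 0, 0.0105 and 0 in NC and 18.7, 71.9 and 0 in FGL1-OE. Its difference was 3.49 (-0.08 to 7.06, unadjusted limma p = 0.0539, exact permutation p = 0.4), and it was likewise listed only through FGL1-OE. The form with the insertion thus led in FGL1-OE 1 and FGL1-OE 2 and was listed at 0 in FGL1-OE 3, where CDH1-201 was near its level in NC 3. The listed transcripts of CDH1 summed to 126%, 18.5% and 31.9% of the gene's FPKM in NC and to 30.9%, 124% and 29.7% in FGL1-OE, so that in 4 libraries they accounted for 31.9% of it or less. Besides having the insertion, CDH1-212 lacks 74 bases of CDH1-201, 0 of them coding. Of the words of 31 bases in CDH1-212, 0.578% occur in no other annotated CDH1 transcript, and of those in CDH1-201 1.52%. CDH1-212 and the other forms compared in pairs below were picked after their values had been seen.

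JUP exchanged its leading transcript in both libraries numbered 3, where its level as a gene, 72.03 and 69.2 FPKM, lay within the range of the other 4 libraries. JUP-201 was at 67.9, 48.0 and 5.60 FPKM in NC, against 65.7, 60.8 and 3.99 in FGL1-OE, while JUP-202 was at 3.89, 1.82 and 62.1 in NC and 4.37, 6.38 and 62.5 in FGL1-OE. The share of JUP-202 in the pair was 91.7% in NC 3 and 94.0% in FGL1-OE 3, and 9.50% or less in the other 4 libraries. Both forms encode the same 745 codons and differ only outside them, in 111 bases of JUP-201 and 209 of JUP-202. JUP-203, which also has these codons, was at 29.6 to 36.1 in NC and 31.6 to 37.4 in FGL1-OE and took no part in the exchange.

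PKP2 and CTNNB1 each had 1 NC library unlike the other 5. PKP2-202 (ENST00000340811) was at 15.7, 8.69 and 19.3 FPKM in NC, compared with 20.4, 24.4 and 24.5 in FGL1-OE, groups that did not overlap (0.69, -0.12 to 1.504, unadjusted p = 0.0814). PKP2-201 was at 15.4 in NC 2 and at 0.0146 or less in every other library. In NC 2 it made up 63.996% of the pair, and without NC 2 the difference of PKP2-202 was 0.39. CTNNB1-202 (ENST00000396183), of 781 codons, was at 36.7, 29.4 and 7.08 in NC and 27.3, 35.6 and 35.5 in FGL1-OE (0.68, unadjusted p = 0.300). CTNNB1-210, which starts 7 codons later, was at 30.2 in NC 3, 81.0% of that pair, and at 0.0251 or less elsewhere. CTNNB1-206, also of 781 codons, was listed at 0 in all NC libraries and at 0.428, 0.940 and 0.663 in FGL1-OE, so it was listed only through FGL1-OE, and it was too low to be tested.

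CTNNA1 had 3 different leading transcripts over the 6 libraries. CTNNA1-201 (ENST00000302763), the form of 906 codons, was at 19.5, 4.41 and 9.14 FPKM in NC, against 24.1, 7.16 and 20.5 in FGL1-OE (0.65, -0.88 to 2.19, unadjusted p = 0.340). The difference was 0.18 without NC 2 and 0.35 without FGL1-OE 1, but 1.14 without NC 1 and 1.16 without FGL1-OE 2. It was lowest within each group in the library numbered 2. CTNNA1-210, of 841 codons, was the leading form in NC 2 at 38.6 and in NC 3 at 10.5, and was at 4.66 or less in the other 4 libraries. CTNNA1-244, also of 841 codons, led in FGL1-OE 2 at 13.3, beside 8.11 or less elsewhere.

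DSP, DSG2 and PKP3 each kept 1 leading transcript in all 6 libraries. DSP-201, the long desmoplakin of 2871 codons, was at 18.2, 28.0 and 23.5 FPKM in NC, against 20.8, 30.1 and 26.4 in FGL1-OE (0.15, unadjusted p = 0.603). DSP-202, which lacks 1797 coding bases and so has a shorter rod, made up 32.2% to 40.8% of the summed level in NC and 33.0% to 36.8% in FGL1-OE. DSG2-201 was the 1 listed form of DSG2 (0.12, unadjusted p = 0.704). PKP3-201 held 92.4% to 100% of PKP3 in every library (0.03, unadjusted p = 0.940). DSC2 was low in both forms: DSC2-202, the long a form, was at 0.399, 0.959 and 0.455 in NC and 0.425, 0.637 and 0.295 in FGL1-OE (-0.13, unadjusted p = 0.614). DSC2-201, the b form whose tail is printed above, was at 0.207, 0.164 and 0.210 in NC and 0.256, 0.646 and 1.03 in FGL1-OE, listed only through FGL1-OE and too low to be tested.

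**Figure D4:**
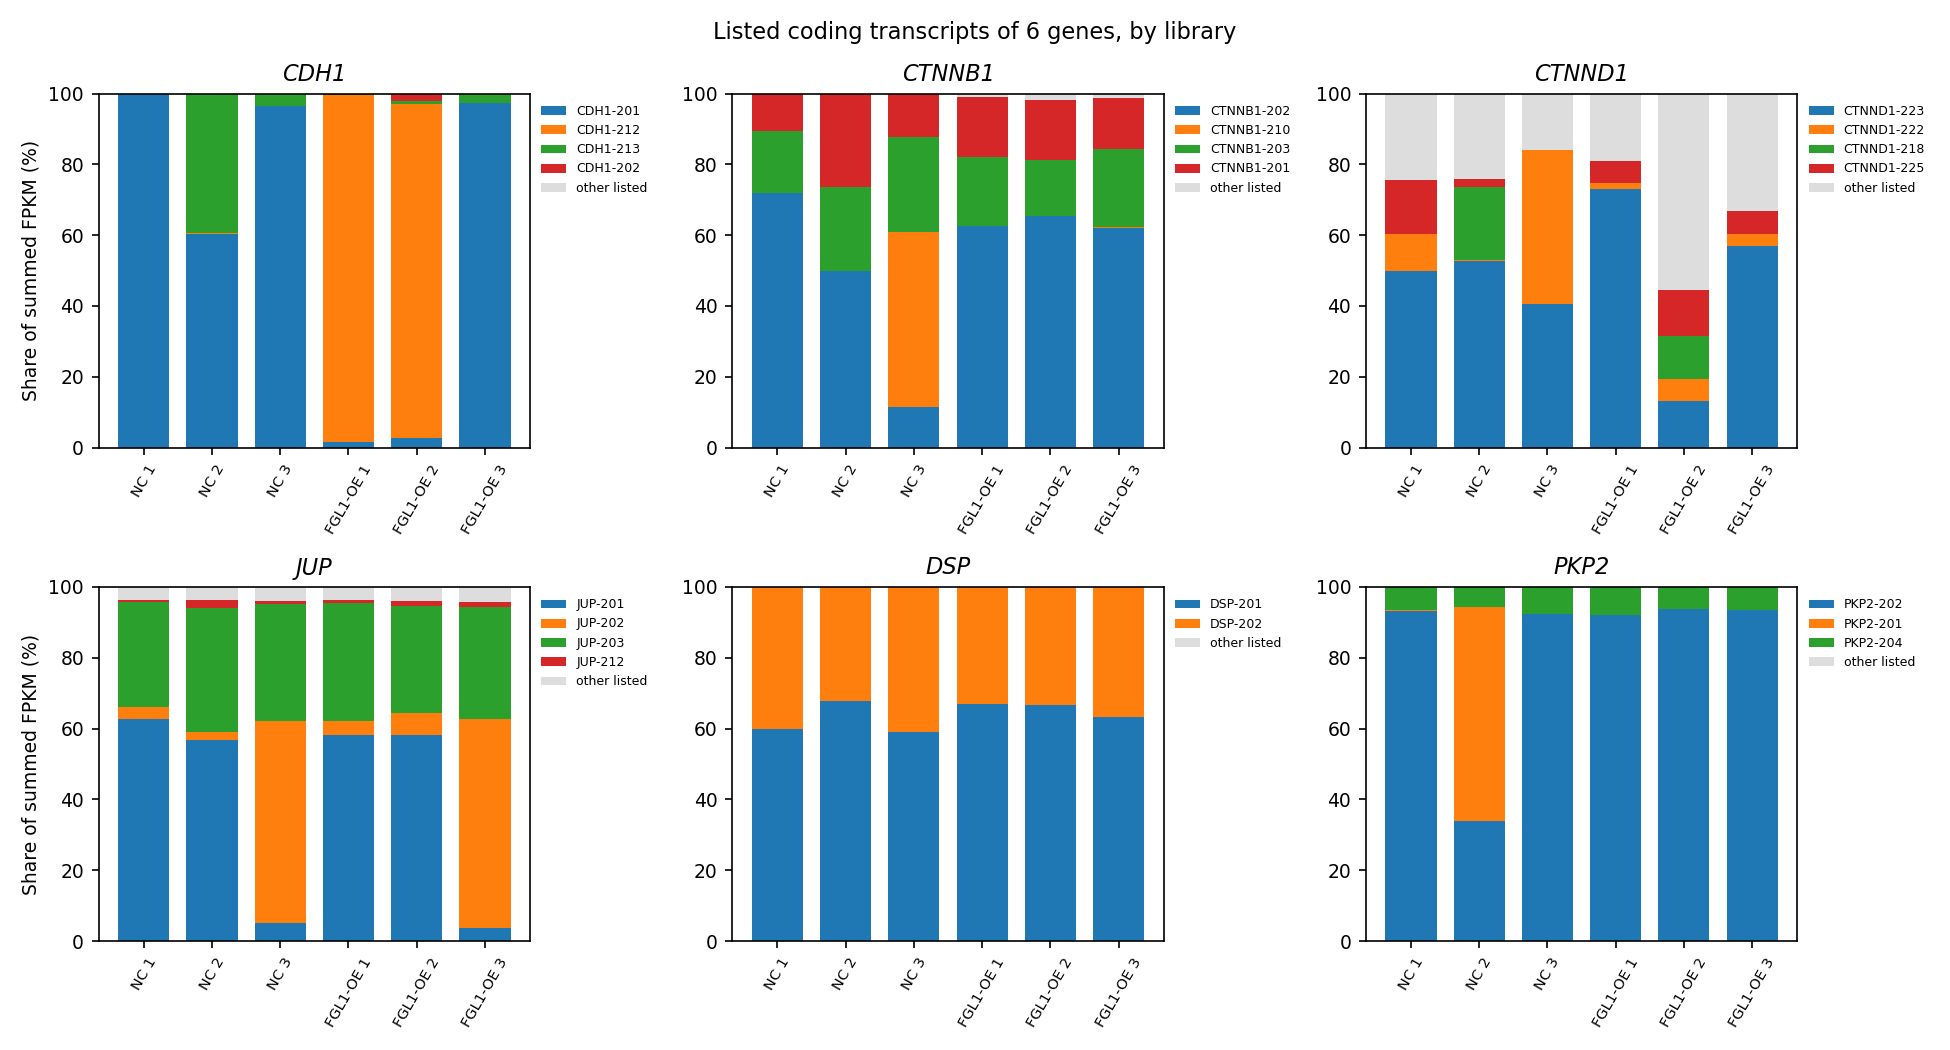
Share (%) of the summed FPKM of each gene's listed transcripts, by library, for 6 of the 10 genes, with up to 4 transcripts in color and the remaining ones in grey. CDH1-212 fills 98.0% of FGL1-OE 1 and 94.3% of FGL1-OE 2, JUP-202 takes over in both libraries numbered 3, PKP2-201 fills 60.4% of NC 2 and CTNNB1-210 49.4% of NC 3, while DSP keeps nearly the same split in all 6.

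Related genes were taken from 9 lists of 99 genes, of which 82 were listed and 80 tested. At an unadjusted p under 0.05, 2 of the 80 had higher values in FGL1-OE and 0 lower ones (2.50%, beside 2.01% of all tested genes and 1.21% of them with higher values), and none passed adjustment in limma. Their median difference was -0.0028, beside 0.02 for all tested genes. The groups did not overlap in 7 of the 80 (VCL, ACTN1, TJP3, TWIST1, TWIST2, AMER1 and VIM), beside 7.15% of all tested genes. Without NC 2, 20 of the 80 had an unadjusted p under 0.05, as did 21.8% of all genes, and with the trend removed 5, beside 6.42%.

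The 2 genes were TWIST2 and VIM. TWIST2, a transcription factor known to repress CDH1, was at 2.73, 3.22 and 3.08 FPKM in NC, compared with 4.72, 4.06 and 4.397 in FGL1-OE (0.43, SE 0.14, unadjusted p = 0.0181). VIM, the intermediate filament of mesenchymal cells, was at 14.4, 13.8 and 17.9 in NC and 21.5, 24.4 and 20.02 in FGL1-OE (0.49, SE 0.16, unadjusted p = 0.0179). Their groups, like those of CDH1, did not overlap. The remaining mesenchymal genes, 8 of 9 tested, had differences between -0.15 (S100A4) and 0.20 (CDH2), and the median of that list was 0.01. CDH2, the N-cadherin that takes the place of E-cadherin in mesenchymal cells, was at 4.001, 7.17 and 5.01 in NC and 5.84, 6.34 and 6.50 in FGL1-OE (unadjusted p = 0.342).

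Of the other 4 repressors of CDH1 tested, SNAI2 was at 2.54, 7.68 and 3.78 FPKM in NC, against 5.67, 6.30 and 6.54 in FGL1-OE (0.44, unadjusted p = 0.193). TWIST1 ran the other way, at 7.04, 2.98 and 3.07 in NC and 2.84, 2.33 and 2.54 in FGL1-OE (-0.51, unadjusted p = 0.107). SNAI1 and TCF3 had differences of -0.04 and -0.13, ZEB1 was too low to be tested, and ZEB2 and TCF4 were not listed. Epithelial regulators, which support CDH1 and splicing of the epithelial kind, had 0 of 8 members under an unadjusted p of 0.05, from ELF3 at -0.22 to ESRP1 at 0.05. The 7 genes of cadherin cleavage and turnover also had 0, from MMP14 at -0.29 to NUMB at 0.25, with ADAM10, the protease that sheds E-cadherin, at -0.03.

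Partners of the adherens junction had 0 of 17 under an unadjusted p of 0.05, with a median of 0.07. VCL, the vinculin that reinforces the junction under tension, was at 27.3, 34.9 and 27.8 FPKM in NC, compared with 23.8, 27.2 and 23.8 in FGL1-OE (-0.25, unadjusted p = 0.154). ACTN1, an actin crosslinker, was at 42.0, 35.7 and 41.9 in NC and 47.6, 46.1 and 47.3 in FGL1-OE (0.24, unadjusted p = 0.139). The groups of both genes did not overlap, in opposite directions. LIMA1, which binds alpha-catenin to actin, had the highest difference of the list, 0.29 (unadjusted p = 0.406), and CDH3, the P-cadherin, had 0.15 (unadjusted p = 0.362).

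The 5 other desmosome genes tested had a median of 0.02, with EVPL lowest and PERP highest at 0.20. Tight junction genes, which seal the space between cells, had 0 of 15 under an unadjusted p of 0.05. MARVELD3 had the highest difference, 0.27, and CLDN4 the lowest, -1.48 (-3.99 to 1.04, unadjusted p = 0.210), through FGL1-OE 2 at 0.107 FPKM beside 23.99 and 19.97 in the other two libraries of its group. TJP3 was at 6.52, 3.95 and 5.44 in NC and 3.62, 3.48 and 3.84 in FGL1-OE (-0.42, unadjusted p = 0.0545).

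Beta-catenin is destroyed by a complex built on AXIN1 and APC unless it is held in junctions or stabilized by Wnt. Of the 8 tested genes of the complex, 0 had an unadjusted p under 0.05, and they ran from AMER1 at -0.15 to CSNK1A1 at 0.32. The TCF/LEF factors and Wnt target genes also had 0 of 7, from NOTUM at -0.37 to MYC at 0.96. MYC was at 2.15, 2.18 and 2.27 FPKM in NC and at 2.33, 2.21 and 21.5 in FGL1-OE, so its difference rested on FGL1-OE 3 alone (unadjusted p = 0.201). CCND1 was at 62.3 ± 4.22 in NC and 64.03 ± 2.46 in FGL1-OE (SD, n = 3 each).

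**Figure D5:**
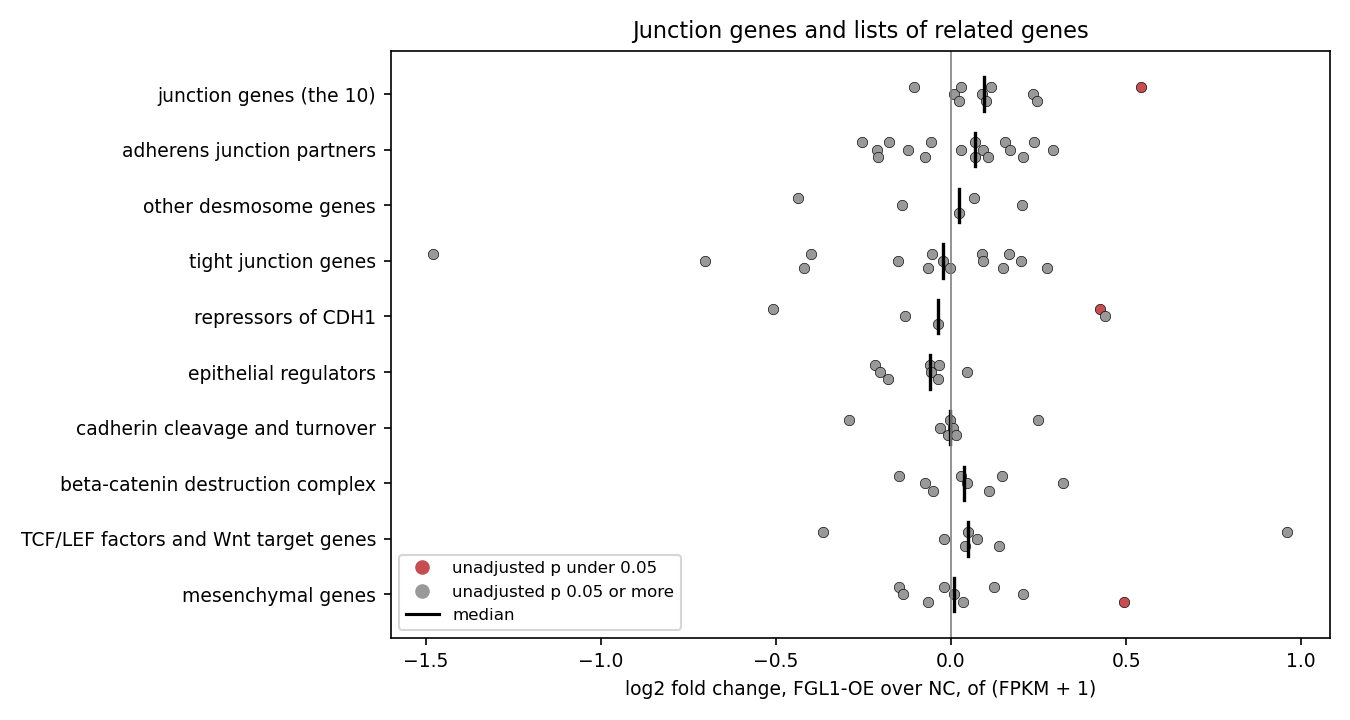
Log2 difference of (FPKM + 1), FGL1-OE over NC, of each tested gene of the 10 junction genes and of 9 lists, with a bar at the median and red points at an unadjusted p under 0.05. The red points are CDH1 (0.54), TWIST2 (0.43) and VIM (0.49), and the medians of the lists lie between -0.06 and 0.07.

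Among 3991 other genes with a mean of at least 10 FPKM, PRNP, ELOA and TNIP1 followed CDH1 most closely over the 6 libraries. Pearson's r with CDH1 was 0.994 for PRNP, the prion protein, 0.992 for ELOA, an elongin, and 0.984 for TNIP1, a partner of the A20 protein. PRNP was at 17.9, 8.26 and 24.1 FPKM in NC, against 29.9, 33.8 and 32.6 in FGL1-OE, the same order of NC libraries as in CDH1. The 6 points fall into 2 groups and share the low NC 2. The log2 differences were 1.01 for PRNP, 0.16 for ELOA and 0.34 for TNIP1, given with no test since the genes were chosen for this pattern. Of the 10 junction genes JUP was the nearest to CDH1, with an r of 0.798.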

How the data were processed

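RNA-seq was analysed for 3 NC and 3 FGL1-OE libraries, grouped by the genotype in the labels. The authors deposited FPKM values per library for genes and transcripts, with GRCh37 coordinates. Per the labels, mRNA was enriched with oligo(dT) and libraries were made with a stranded kit. The submitters' processing notes name StringTie. Versions, aligner and annotation are not given in the sources used here. The columns of group means, which the authors deposited on the log2 scale, and their fold (ratio), p-values and q-values were not used. Columns without a known sample numbered 0. The depth is unknown, so no counting intervals are given.

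Differences were estimated with lmFit and eBayes of limma 3.58.1 (R 4.3.3) on log2(FPKM + 1), over features whose mean reached 0.5 FPKM and without covariates, with Benjamini-Hochberg adjustment over each whole table and a threshold of 0.05. A difference on this scale understates the change of low genes. Single values had an exact permutation test (20 assignments). The code was tested on simulated data. GC content and lengths came from GENCODE v29 (97.6% of genes), and the trend was removed per library with splines of 4 degrees of freedom. Other figures were computed in Python 3.11.15.

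Members and lists were chosen with earlier results of these data known. Named were all 10 genes, for each gene the transcript with the highest mean, transcripts with an unadjusted p under 0.05 or with groups apart by a log2 value over 1, for each list the genes with an unadjusted p under 0.05 and the highest and lowest, and the 3 genes most like CDH1. Other names were picked after their values were seen. Alternatives were array weights, no moderation, a replicate block, size factors by median of ratios, quantile normalization, a common sum, each library left out, a minimum mean of 1 FPKM or none, and a pseudocount of 0.1; removal of the trend, and the values of the lists, TWIST2 and VIM under all of these, were added after seeing the data. A sequence of PKP2 is not reported here.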

Additional observations from a re-analysis of the deposited data

How the results depend on the processing

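CDH1 kept its direction under all 16 alternatives (0.23 to 0.70), with an adjusted p from 0.209 to 1.00 outside the array weights. With these CDH1 passed adjustment (0.23, unadjusted p = 0.00385, adjusted p = 0.0155), but their estimate gave NC 3 a weight of 1110 and NC 1 and NC 2 0.0630 and 0.0478. With array weights, 5004 and 6234 genes had an adjusted and an unadjusted p under 0.05 (1 and 242 in the reported fit), 6 of the 10 junction genes an unadjusted one (1), 37 list genes (2) and 115 transcripts an adjusted one (5). Removal of the GC and length trend, chosen after seeing the data, gave 2 and 756 genes and 5 list genes, the model without moderation 2 and 374 genes, 0 junction genes and 3 transcripts, scaling to a common sum 0 junction genes, and a pseudocount of 0.1 29 transcripts. Leaving out each library in turn gave 1 to 7 and 137 to 2618 genes, 0 to 4 junction genes, 1 to 20 list genes and 1 to 28 transcripts, the highest each time without NC 2. The median of the 10 genes stayed within 0.03 to 0.17.

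Several differences changed sign. CTNNA1 was at -0.0162 with median-of-ratios factors, -0.0557 with array weights and -0.0347 with the trend removed, DSC2 at -0.0312 with the trend removed, JUP at -0.0561 with array weights, and PKP3 at -0.0014 with median-of-ratios factors and -0.29 with array weights. Among transcripts, CTNND1-223 was at 0.37, JUP-201 at 1.59 and PKP3-201 at -0.27 with array weights, and JUP-201 at 0.0185 with the trend removed. With each library left out, the range was -0.0936 to 0.0727 for CTNNA1, -0.173 to 0.00627 for CTNNB1, -0.0284 to 0.172 for JUP, -0.0494 to 0.244 for DSP, -0.0418 to 0.345 for DSG2, -0.0555 to 0.170 for DSC2 and -0.36 to 0.26 for PKP3. For transcripts it was -0.0112 to 1.10 for CTNNB1-202, -0.55 to 0.90 for CTNND1-223, -1.09 to 1.19 for JUP-201, -0.00675 to 0.293 for DSP-201, -0.0434 to 0.350 for DSG2-201, -0.224 to 0.0186 for DSC2-202 and -0.34 to 0.24 for PKP3-201. The cause of these changes was not tested. VIM and TWIST2 kept their direction under all 16. Outside the array weights, the unadjusted p (limma, or the linear model without moderation) was under 0.05 in 14 of 15 alternatives for VIM. For TWIST2 it was so in 13 of 15. The highest values were 0.0817 for VIM and 0.0709 for TWIST2.

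Whether the replicate numbers pair the libraries was not settled. Deviations from the group means correlated at 0.345 and 0.282 for numbers 1 and 2, where each library correlated best with its own number in the other group. For number 3 the value was -0.0614, and neither library numbered 3 correlated best with its own number. With the replicate block, 0 transcripts had an adjusted p under 0.05, and CDH1 had an unadjusted p of 0.0246. Depth is unknown, and levels under 1 FPKM, as of DSC2, are the least certain.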
